A study of Homo sapiens with 18 samples.

Results

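The effect of the PBRM1 shRNA on gene expression was measured in 786-O cells in which VHL is present. Of 18 arrays in the series, 6 carry this comparison, 3 labelled PBRM1 shRNA and 3 labelled with a scramble shRNA (SCR), all with the genotype VHL+/+. 786-O is a human clear cell renal cell carcinoma (ccRCC) line that lacks functional VHL, and the VHL+/+ cells carry the gene again. According to the study's methods both shRNAs were stably expressed, and a single PBRM1 hairpin was put on the arrays, so that its effect cannot be separated from other effects of that hairpin. All groups received no other treatment. The remaining arrays hold VHL-/- cells with SCR or PBRM1 shRNA and cells of both genotypes with KDM5C shRNA, 3 per group. Replicates 1 and 2 of each group lay on chip 1 and replicate 3 on chip 2. The labels do not say whether replicates came from separate cultures, so p-values measure the spread between these samples, which may be technical.

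PBRM1 encodes BAF180, a bromodomain protein of the PBAF form of the SWI/SNF chromatin remodelling complex, and it is among the genes most often mutated in ccRCC. Interferon signalling acts through ISGF3, a complex of STAT proteins and IRF9. ISGF3 binds the interferon-stimulated response element (ISRE) in the promoters of antiviral genes, whose products block viral replication, edit or degrade viral RNA, or present antigens.

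Signals are given as deposited, on the log2 scale, and cover 13141 genes with a median of 7.65. Pearson's correlation across genes, which are not independent replicates, was 0.9851 to 0.9925 between the SCR arrays and 0.9764 to 0.9922 between the PBRM1 shRNA arrays. Within both groups the lower values involved replicate 3, on chip 2. Limma was fitted with a term for the chip, as the study's methods also controlled for batch. The kidney markers PAX8, KRT8, CDH2 and VIM had signals of 8.07 or more on all 6 arrays. The 11 kidney markers in the table averaged 9.28 to 9.38 with SCR and 9.27 to 9.42 with PBRM1 shRNA, and CDH16 and CUBN, which mark differentiated tubule, were near the bottom of the scale. The 3 leukocyte markers in the table averaged 7.18 to 7.39 with SCR and 7.35 to 7.45 with PBRM1 shRNA, with LYZ and CD79A near the bottom of the scale and CD68 above it. The endothelial markers PECAM1 and TEK lay between 6.57 and 6.88, below 6.91, under which 0.25 of all signals fell.

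PBRM1 mRNA, the target of the shRNA, was at 7.38, 7.46 and 7.22 with SCR (replicates 1, 2 and 3) and at 7.51, 7.09 and 7.02 with PBRM1 shRNA. The arrays overlapped, since the highest value of all belonged to PBRM1 shRNA replicate 1. The log2 fold change was -0.15 ± 0.12 (SE), with a 95% confidence interval of -0.40 to 0.11 and an adjusted p of 0.639 by limma. The signal of PBRM1 stood at percentile 40.4 of all genes, and where its probes lie in the transcript was not examined, so the arrays neither show nor bound the knockdown of the protein. The groups are named below by their labels.

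The PBRM1 shRNA arrays differed from SCR in 124 genes, here termed called, whose adjusted p was under 0.05 and whose fold change reached 1.5. Of 13141 genes, 40 were lower (0.304%) and 84 were higher (0.639%). Interferon-responsive genes and several secreted or membrane proteins were among the falls. IGSF3, the aldo-keto reductases AKR7A2 and AKR7A3, cyclin D1 (CCND1) and GAS6 were among the rises. At the adjusted p alone, 118 genes were lower (0.898%) and 209 higher (1.59%), while 8 fell and 13 rose by at least 2-fold. Fewer cells in a state and less RNA per cell cannot be told apart in these bulk samples.

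Most genes moved little. The median absolute log2 fold change over all genes was 0.086, and 81.7% of genes changed by less than 0.2. The called falls had a median of -0.73 and the called rises a median of 0.74. After the chip difference was removed, the 3 PBRM1 shRNA arrays lay below the 3 SCR arrays for 10.1% of all genes and above them for 11.7%. All 124 called genes were separated in this way, 114 of them also as deposited, and all 124 had the same sign on both chips, as did 62.3% of all genes. No called gene had a mean signal over all 18 arrays among the lowest 0.25 of all genes. Single PBRM1 shRNA arrays of some falls did lie under 6.91, below which 0.25 of all signals fell. Examples are EPSTI1 (6.72), SFTA1P (6.78), IL7R (6.79) and PTGES (6.83). With 1 of the 6 arrays left out the falls numbered 26 to 63, the lowest without SCR replicate 1 and the highest without PBRM1 shRNA replicate 1, and the rises 69 to 106, the highest again without PBRM1 shRNA replicate 1. Without the chip term 16 genes were lower and 68 higher.

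**Figure D1:**
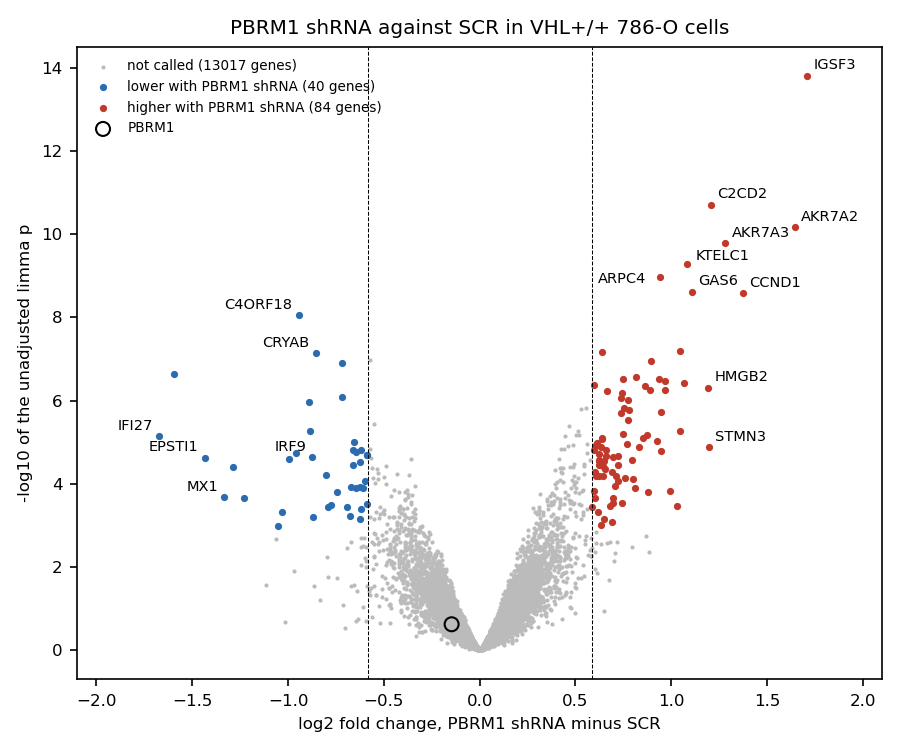
Log2 fold change of each of 13141 genes, PBRM1 shRNA minus SCR in VHL+/+ cells (x axis), against -log10 of the unadjusted limma p (y axis), with dashed lines at a 1.5-fold change. The 84 called rises reach smaller p-values than the 40 called falls, and PBRM1 (open circle) lies among the genes not called at -0.15.

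Promoters of most falling interferon genes held the letters of the ISRE. Below are the stretches around each match in the 5 called genes with the largest falls that hold it, from RefSeq windows of GRCh38.p14 spanning 250 bases before to 50 after a transcription start, printed 5′ to 3′ along the gene. Capitals mark the match to the ISRE, searched as 2 copies of GAAA with any 2 bases between, which reads as copies of TTTC where it lies on the opposite strand.
IFI27, chr14:94110598-94110680, plus strand: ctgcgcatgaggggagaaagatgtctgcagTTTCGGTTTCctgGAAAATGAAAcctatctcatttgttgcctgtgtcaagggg
EPSTI1, chr13:42992252-42992321, minus strand: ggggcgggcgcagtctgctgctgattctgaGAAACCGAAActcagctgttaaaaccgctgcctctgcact
MX1, chr21:41431824-41431893, plus strand: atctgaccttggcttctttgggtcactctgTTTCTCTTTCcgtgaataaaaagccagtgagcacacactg
IFI6, chr1:27672246-27672378, minus strand: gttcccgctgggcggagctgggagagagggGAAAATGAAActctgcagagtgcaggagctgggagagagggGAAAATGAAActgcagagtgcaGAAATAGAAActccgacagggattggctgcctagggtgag
IFI44L, chr1:78620254-78620414, plus strand: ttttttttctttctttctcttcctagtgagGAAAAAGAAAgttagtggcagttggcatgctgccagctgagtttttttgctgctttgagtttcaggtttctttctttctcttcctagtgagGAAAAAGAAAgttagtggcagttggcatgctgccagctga

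IFI6 holds 3 copies of the match, and IFI27 and IFI44L 2 each, in IFI27 in opposite orientations. The motif was searched on both strands, and copies may overlap. Promoter windows were found for 9738 of the 13141 genes, and 3.91% of these genes held the motif in at least 1 window. Among the genes called lower it was present in 8 of 28 with a window (28.6%), namely EPSTI1, IFI27, IFI44L, IFI6, IFIT1, MX1, SAMD9 and TAP1. Among those called higher it was present in 4 of 67 (5.97%), C2CD2, LRRC8A, TMEM109 and TMX3. All 8 falls with the motif belong to the interferon lists described next, and 0 of the 18 other falls with a window held it. The match alone did not separate called from uncalled genes, since 40 of 80 interferon-list genes that were not called also held it. In the interferon lists 8 of 48 genes with the motif were called lower, against 2 of 42 genes without it. The median log2 fold change was -0.26 with the motif and -0.21 without it. Another motif, the gamma-activated site (TTC and GAA with any 3 bases between), was also searched. It was present in 8 of 28 falls (28.6%), 6 of 67 rises (8.96%) and 8.72% of all genes with a window. Of the falls, 5 of 10 in the interferon lists held it, IRF9 among them, and 3 of the 18 others. These are matches of letters, not measured binding.

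The gene lists used here and below were chosen with earlier results of these data known. Genes of the interferon response were described through 4 lists, which together hold 113 genes of the table. In these lists 11 genes fell and 0 rose, and 88 of 113 had a negative sign, with a median log2 fold change of -0.185 against 0.003 over all genes. The share called lower, 9.73%, stands beside 0.304% of all genes. Averaged over the 113 genes, the signal was 8.68, 8.68 and 8.92 with SCR and 8.49, 8.41 and 8.58 with PBRM1 shRNA. The number of falls among them varied with the arrays used: 6 without SCR replicate 1, 6 without SCR replicate 3, 6 without PBRM1 shRNA replicate 2, and 8 or 9 without each of the other 3. It was 5 without the chip term, 11 on chip 1 alone and 16 when the other 12 arrays were left out of the model. The lists overlap in part, and IRF9 is in both the signalling and the antiviral list, so calls per list do not add up to 11.

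Of the signalling components, IRF9, the DNA-binding subunit of ISGF3, was the single called gene among 24 (4.17%, against 0.304% of all genes). It was at 9.46, 9.46 and 9.50 with SCR and at 8.57, 8.21 and 9.02 with PBRM1 shRNA, without overlap, and the fall was smaller on chip 2 (-0.48) than on chip 1 (-1.07). Its log2 fold change was -0.87 ± 0.15 (adjusted p = 0.00363 by limma). STAT2, another subunit, was at 9.11, 9.28 and 9.95 with SCR and at 8.59, 8.97 and 9.87 with PBRM1 shRNA, and the groups overlapped (log2 fold change -0.31 ± 0.20, adjusted p = 0.516 by limma). The median of the 24 signalling genes was -0.033, close to that of all genes.

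The antiviral effector list held most of the interferon falls, with 9 of 66 called lower (13.6%, against 0.304% of all genes), IRF9 counted again among them. In it 0 genes were called higher and 57 of 66 were negative in sign (median -0.293). IFI27, an interferon-inducible protein of the mitochondrial and nuclear membranes, showed the largest fall of all genes. It was at 9.26, 9.31 and 9.95 with SCR and at 8.01, 7.43 and 8.06 with PBRM1 shRNA, a 3.19-fold difference (log2 fold change -1.67 ± 0.26, adjusted p = 0.00188 by limma). Every PBRM1 shRNA array lay more than 1 unit below every SCR array.

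EPSTI1, first found as a gene induced by stroma in epithelial cells, was at 8.35, 8.20 and 8.99 with SCR and at 7.20, 6.72 and 7.31 with PBRM1 shRNA (2.71-fold lower, adjusted p = 0.00364 by limma). MX1, a dynamin-like GTPase that blocks viral nucleocapsids, was at 8.48, 8.48 and 9.35 with SCR and at 7.59, 7.22 and 7.50 with PBRM1 shRNA (2.52-fold lower, adjusted p = 0.0153 by limma). In both genes the groups did not overlap, and SCR replicate 3 was the highest array. IFI6, a mitochondrial protein that limits apoptosis, fell 2.44-fold, from 10.92, 11.02 and 11.52 to 9.88, 9.43 and 10.29 (adjusted p = 0.00496 by limma). IFI44L, an interferon-inducible protein, fell 2.34-fold, from 8.62, 8.15 and 9.21 to 7.34, 7.09 and 7.87 (adjusted p = 0.0158 by limma). IFIT1, which binds viral RNA without a methylated cap, was at 10.23, 10.17 and 10.53 with SCR and at 9.47, 9.36 and 9.49 with PBRM1 shRNA, and the groups did not overlap (log2 fold change -0.87 ± 0.20, adjusted p = 0.0312 by limma).

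SAMD9L and SAMD9, neighbouring genes whose products restrict poxviruses, fell 1.73-fold and 1.60-fold. Some of these calls were lost when an array was left out. IFI27, EPSTI1, IFI6 and IRF9 were called with each of the 6 arrays left out. The call of MX1 was lost without SCR replicate 3 (adjusted p = 0.103 by limma), PBRM1 shRNA replicate 2 (0.0819) or PBRM1 shRNA replicate 3 (0.0731). That of IFI44L was lost without SCR replicate 1 (0.0702), SCR replicate 3 (0.104) or PBRM1 shRNA replicate 2 (0.0975). That of IFIT1 was lost whichever array was left out (0.0519 to 0.142), while its log2 fold change stayed between -0.92 and -0.79. SAMD9L kept its call in 2 of the 6 fits, those without SCR replicate 2 or PBRM1 shRNA replicate 1, and SAMD9 in the fit without SCR replicate 2.

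Genes of ISG15 conjugation, a ubiquitin-like modification, gave 0 calls among 6. ISG15 was at 10.54, 10.70 and 10.99 with SCR and at 10.36, 10.22 and 10.49 with PBRM1 shRNA, which do not overlap, but the difference of -0.39 ± 0.20 had an adjusted p of 0.390 by limma. The conjugating enzyme UBE2L6 was at -0.59 ± 0.17 (adjusted p = 0.0888 by limma) and the ligase-like HERC6 at -0.80 ± 0.25 (adjusted p = 0.113 by limma). ISG20, an exonuclease, was at -0.41 ± 0.24, and PLSCR1, a phospholipid scramblase, at -0.32 ± 0.12, and neither passed the test.

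Antigen presentation through MHC class I gave 2 falls among 19 genes (10.5%, against 0.304% of all genes), of which 1 is described. TAP1, a peptide transporter, fell from 10.59, 10.88 and 10.71 to 10.10, 10.12 and 10.03. The groups did not overlap, and the fall was close to the threshold, at 1.57-fold (adjusted p = 0.00309 by limma). TAP1 dropped below 1.5-fold without SCR replicate 2.

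**Figure D2:**
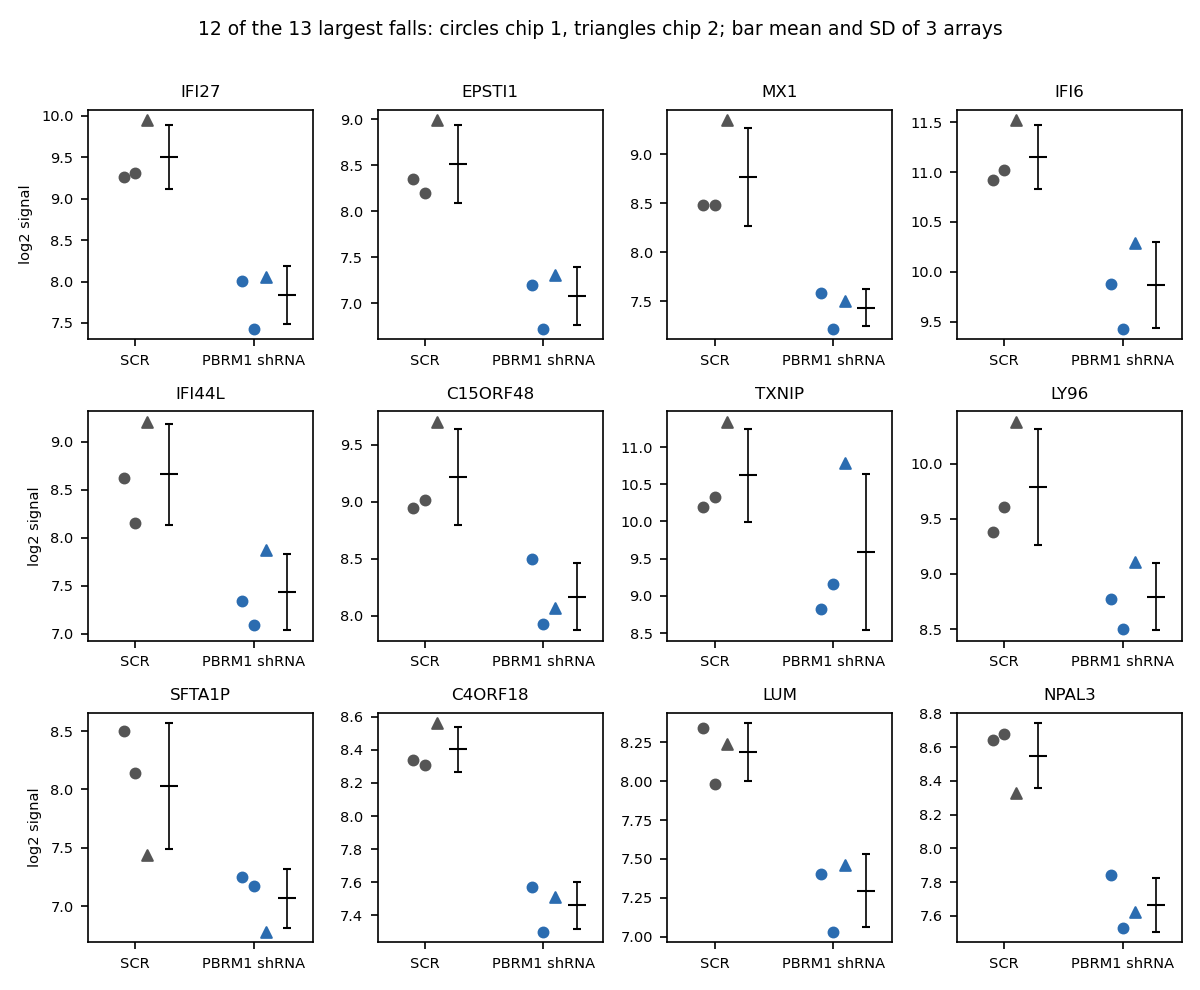
Log2 signal (y axis) of 12 of the 13 genes with the largest falls on each SCR and PBRM1 shRNA array of VHL+/+ cells, circles for chip 1 and triangles for chip 2, with the mean and SD of 3 arrays beside them. The groups are apart in 11 panels, and in TXNIP the chip 2 array with PBRM1 shRNA (10.79) lies above the chip 1 arrays with SCR (10.19 and 10.33).

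Inflammatory cytokines and NF-kB targets gave 0 calls among 32 genes, although 27 of 32 had a negative sign and the median was -0.262. The difference was uneven between chips, with a median of -0.096 on chip 1 and -0.619 on chip 2. IL6 was at 9.06, 8.95 and 9.81 with SCR and at 8.76, 7.87 and 7.85 with PBRM1 shRNA. Its groups did not overlap, and its difference of -1.11 ± 0.46 did not pass the test (adjusted p = 0.247 by limma). IL8 (CXCL8) was at 9.98, 9.81 and 12.24 with SCR and at 9.90, 8.72 and 10.35 with PBRM1 shRNA, with overlap and a difference of -1.02 ± 0.77 (adjusted p = 0.613 by limma). CCL5, a T cell chemokine, was at -0.26 ± 0.14 (adjusted p = 0.386 by limma).

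Of 55 listed HIF targets 45 were in the table, and CA9, VEGFA, PDK1 and NDUFA4L2 were among those absent. The 45 gave 2 falls (4.44%, against 0.304% of all genes) and 1 rise (2.22%, against 0.639%). The 42 others were not called (list median -0.036). STC2, a secreted glycoprotein, was among the falls (1.71-fold), and the rise was that of CCND1, described below. STC2 lost its call without SCR replicate 1 (adjusted p = 0.0602 by limma), SCR replicate 3 (0.108) or PBRM1 shRNA replicate 2 (0.131). EPAS1, which encodes HIF2alpha, was at 9.51, 9.13 and 10.00 with SCR and at 9.67, 10.10 and 10.38 with PBRM1 shRNA, and did not pass the test (0.50 ± 0.21, adjusted p = 0.266 by limma). VHL overlapped between the groups (0.18 ± 0.09, adjusted p = 0.358 by limma). The mean VHL signal with SCR was 7.85 in VHL+/+ and 7.77 in VHL-/- cells. The VHL signal thus does not show the difference of genotype, which is taken from the labels. Other genes did differ between the SCR groups, in either direction. CCND1 had a mean of 9.52 in VHL+/+ and 11.13 in VHL-/- cells, and C4ORF18 of 8.40 and 7.64.

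The falls with the smallest p-values were not interferon genes. C4ORF18 (GASK1B), a Golgi-associated kinase-like protein, was at 8.34, 8.31 and 8.56 with SCR and at 7.57, 7.30 and 7.51 with PBRM1 shRNA (adjusted p = 1.31e-05 by limma). CRYAB, a small heat shock protein, fell from 8.17, 8.11 and 8.39 to 7.43, 7.13 and 7.54 (adjusted p = 8.03e-05 by limma). In both genes the SCR arrays lay within 0.3 units of each other, and the groups were far apart. CRYAB was the single called member of 18 heat shock genes (5.56%, against 0.304% of all genes called lower). Their median was -0.175, and 13 were negative.

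LUM, a proteoglycan of the extracellular matrix that also marks fibroblasts, fell 1.85-fold, from 8.34, 7.98 and 8.24 to 7.40, 7.03 and 7.46 (adjusted p = 0.000436 by limma). The other fibroblast and pericyte markers in the table, COL1A1 and RGS5, were at 6.71 to 6.97 on all 6 arrays, near the floor of the scale. LY96, the MD-2 coreceptor of TLR4, fell 2.00-fold, from 9.38, 9.61 and 10.38 to 8.77, 8.50 and 9.11 (adjusted p = 0.00377 by limma). SEMA3A, an axon guidance ligand, and NPAL3 (NIPAL3), a magnesium transporter-like protein, fell 1.75-fold and 1.85-fold, and SFTA1P, a long non-coding RNA, 1.95-fold.

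TXNIP, a thioredoxin-binding protein regulated by glucose, was at 10.19, 10.33 and 11.34 with SCR and at 8.82, 9.16 and 10.79 with PBRM1 shRNA. As deposited the groups overlapped across the chips, and after the chip was removed they did not (2.05-fold lower, adjusted p = 0.0262 by limma). C15ORF48, which encodes a mitochondrial NDUFA4-like protein, fell 2.07-fold (adjusted p = 0.0440 by limma). With an array left out, TXNIP kept its call in the fit without PBRM1 shRNA replicate 3 and C15ORF48 in that without PBRM1 shRNA replicate 1, and the adjusted p reached 0.108 and 0.221 in the others. PTGES, the prostaglandin E synthase, was at 7.31, 7.25 and 8.42 with SCR and at 6.84, 6.83 and 7.07 with PBRM1 shRNA, and fell 1.68-fold (adjusted p = 0.0126 by limma), with SCR replicate 3 well above the others. Its call was lost without SCR replicate 3 (adjusted p = 0.0689 by limma) or PBRM1 shRNA replicate 3 (0.0867).

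The next genes were chosen after their values were seen, and several encode receptors or secreted proteins. IL7R, the interleukin-7 receptor, fell 1.65-fold (adjusted p = 0.000111 by limma), the growth factor granulin (GRN) 1.58-fold and the heparan sulphate proteoglycan GPC4 1.54-fold. The receptor phosphatase PTPRK fell 1.53-fold, the kinase SIK1 1.58-fold and its genomic neighbour HSF2BP, a meiotic recombination protein, 1.54-fold. PTPRK lost its call without SCR replicate 3 (adjusted p = 0.0805 by limma), without PBRM1 shRNA replicate 3 (0.0678), with the other 12 arrays left out of the model (0.0653) and on chip 1 alone (0.195). SIK1 dropped below 1.5-fold without SCR replicate 3, and GRN and GPC4 without PBRM1 shRNA replicate 2.

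The rises were larger relative to their error. IGSF3, an immunoglobulin superfamily membrane protein, was at 7.19, 7.17 and 7.09 with SCR and at 8.90, 8.94 and 8.74 with PBRM1 shRNA. The arrays of each group lay close together, and IGSF3 rose 3.27-fold (log2 fold change 1.71 ± 0.07, adjusted p = 2.04e-10 by limma). Of the 20 largest rises, 18 were called with each of the 6 arrays left out, against 12 of the 20 largest falls.

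AKR7A2 and its neighbour AKR7A3, aldo-keto reductases that reduce aldehydes including those of aflatoxin, rose together. AKR7A2 was at 9.17, 9.35 and 9.19 with SCR and at 10.69, 10.87 and 11.10 with PBRM1 shRNA (3.13-fold, adjusted p = 2.9e-07 by limma). AKR7A3 was at 7.78, 7.80 and 7.76 with SCR and at 8.98, 8.98 and 9.23 with PBRM1 shRNA (2.43-fold, adjusted p = 5.27e-07 by limma). In both the groups lay more than 1 unit apart. The sequences of these paralogs are close, so 1 transcript may contribute to both signals, which was not tested. The list of NRF2 targets and aldo-keto reductases, 27 genes, held 1 further rise, of the efflux transporter ABCC3 (1.62-fold, adjusted p = 0.0160 by limma). Its rises were 11.1% of the list, against 0.639% of all genes, and 24 of its genes were not called (median 0.001). ABCC3 lost its call without SCR replicate 2 (adjusted p = 0.0813 by limma) or PBRM1 shRNA replicate 3 (0.108).

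Cell cycle genes of the G1 phase gave 3 rises (14.3%, against 0.639% of all genes) and 0 falls among 21. CCND1, the cyclin that activates CDK4 and CDK6, was at 9.46, 9.55 and 9.54 with SCR and at 10.82, 11.00 and 10.86 with PBRM1 shRNA (2.59-fold, adjusted p = 4.24e-06 by limma). E2F2, a transcription factor of S phase entry, rose from 7.98, 8.28 and 8.21 to 8.76, 8.97 and 8.82 (adjusted p = 0.00364 by limma). RB1, the retinoblastoma protein that restrains E2F factors, rose from 7.82, 7.85 and 7.59 to 8.59, 8.60 and 8.14 (adjusted p = 0.00601 by limma). None of the 3 overlapped between the groups. Members of opposite function thus rose together, and the median of the list was -0.016.

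DNA replication and mitosis genes gave 1 rise (1.45%, against 0.639% of all genes) and 0 falls among 69. The rise was that of HMGB2, a chromatin protein of dividing cells, from 9.15, 9.16 and 8.41 to 10.19, 10.23 and 9.86 (2.28-fold, adjusted p = 0.000265 by limma). The list leaned upward in small steps, with 54 of 69 positive and a median of 0.116 against 0.003 for all genes. C18ORF56 (TYMSOS), which is transcribed from the opposite strand at TYMS, rose 2.04-fold (adjusted p = 0.0216 by limma), from 8.10, 8.19 and 8.58 to 8.58, 9.23 and 10.14. It kept its call without SCR replicate 2 or PBRM1 shRNA replicate 1 and lost it without any other array (adjusted p up to 0.133 by limma). TYMS itself was at -0.05 and was not called.

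**Figure D3:**
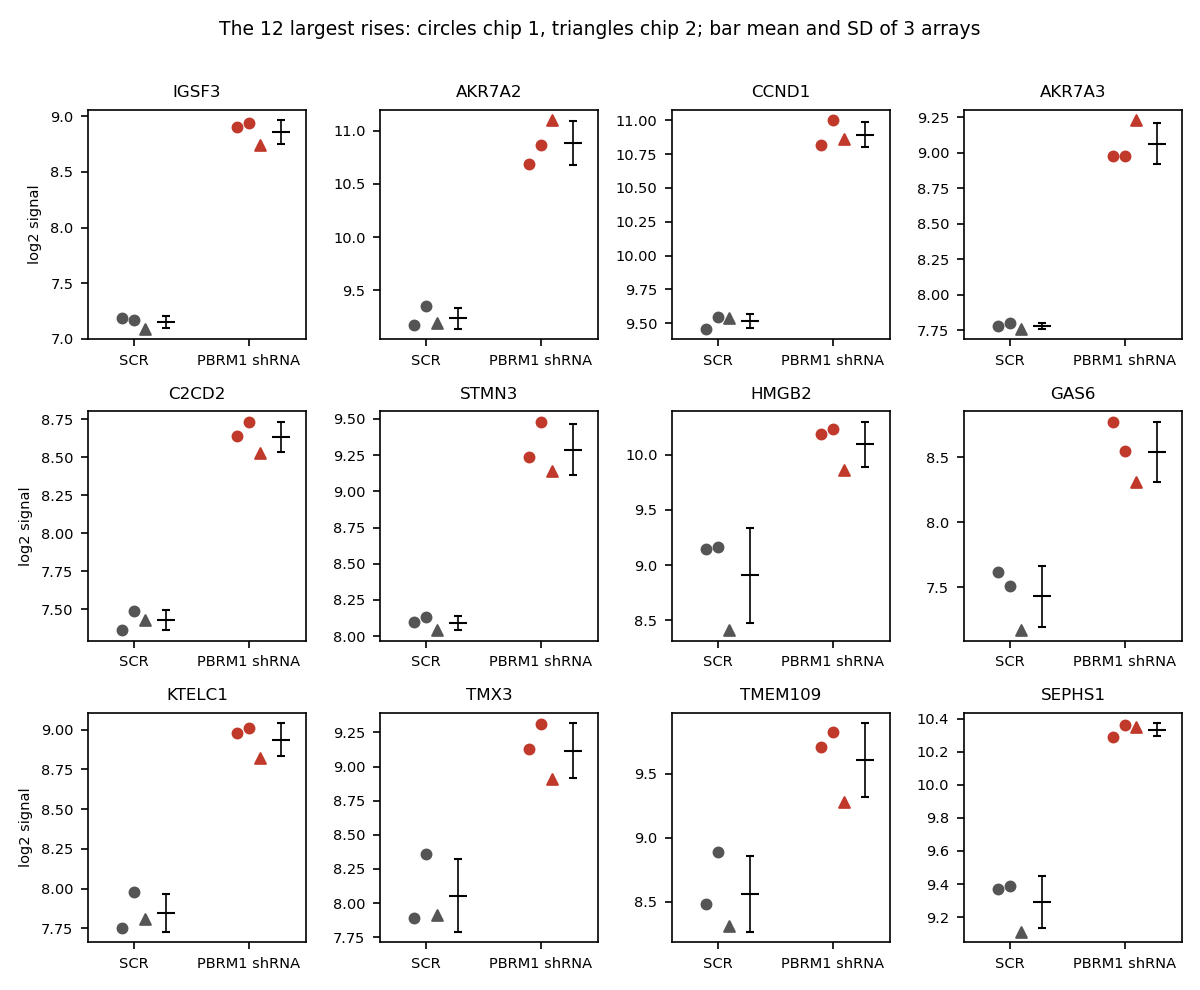
Log2 signal (y axis) of the 12 genes with the largest rises on each SCR and PBRM1 shRNA array of VHL+/+ cells, circles for chip 1 and triangles for chip 2, with the mean and SD of 3 arrays beside them. The groups do not overlap in any panel, from 7.09 to 7.19 against 8.74 to 8.94 for IGSF3 to 9.11 to 9.39 against 10.29 to 10.36 for SEPHS1.

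GAS6, the ligand of the receptor kinases TYRO3, AXL and MERTK, rose from 7.62, 7.51 and 7.17 to 8.77, 8.55 and 8.31 (2.15-fold, adjusted p = 4.24e-06 by limma). It was the only call among the 5 TAM receptor and ligand genes, and the receptors AXL, MERTK and TYRO3 were at 0.04, 0.02 and 0.01. STMN3 and STMN1, stathmins that destabilize microtubules, rose among 15 stathmin and microtubule genes (13.3%, against 0.639% of all genes). STMN3 was at 8.10, 8.13 and 8.04 with SCR and at 9.24, 9.48 and 9.14 with PBRM1 shRNA (2.29-fold, adjusted p = 0.00268 by limma). STMN1 rose 1.67-fold, from 7.63, 7.70 and 7.36 to 8.35, 8.37 and 8.19 (adjusted p = 0.000386 by limma). For these 3 genes the groups did not overlap.

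ARPC4, a subunit of the actin-nucleating Arp2/3 complex, rose from 8.52, 8.66 and 8.39 to 9.53, 9.65 and 9.22 (1.92-fold, adjusted p = 2.34e-06 by limma). The other Arp2/3 subunits were not called and lay between -0.25 and 0.07. TPM1, an actin-binding tropomyosin, rose 1.85-fold (adjusted p = 0.000284 by limma), and 29 of the 31 actin genes were not called. The share called higher was 6.45%, against 0.639% of all genes.

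Other large rises were in proteins of varied function. KTELC1 (POGLUT1), the O-glucosyltransferase of Notch, rose 2.12-fold and C2CD2, a C2 domain protein, 2.31-fold. The thioredoxin-like TMX3 of the endoplasmic reticulum rose 2.09-fold, and TMEM109 and SEPHS1, the latter related to selenophosphate synthetase, 2.06-fold each. ADO, a thiol dioxygenase, and CPD, a carboxypeptidase, rose 1.96-fold each, POLR2C, a subunit of RNA polymerase II, and MALL, a membrane raft protein, 1.93-fold each, and FEM1A, a substrate receptor of a ubiquitin ligase, 1.91-fold. TMEM158 rose 1.99-fold and lost its call without PBRM1 shRNA replicate 2 (adjusted p = 0.0819 by limma). Of the other called rises, some chosen after their values were seen act on DNA or in translation: PARP1 rose 1.81-fold, the replication protein RPA1 1.74-fold, the RecQ-associated C16ORF75 (RMI2) 1.90-fold, the alanyl-tRNA synthetase AARS 1.71-fold and the initiation factor EIF2S2 1.58-fold. RPA1 lost its call without SCR replicate 3 (adjusted p = 0.0602 by limma) and on chip 1 alone (0.0653), as did PARP1 on chip 1 alone (0.0812).

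The remaining lists held few calls, to be read beside the 0.304% of all genes called lower and 0.639% called higher. KRT19, a keratin, was the single rise among the 11 kidney markers (1.61-fold, adjusted p = 0.0374 by limma) and lost its call with any 1 array left out. Ribosomal proteins gave 1 rise among 75 (1.33%), RPS23 (1.65-fold). Matrix, integrin and protease genes gave 1 fall and 1 rise among 48 (2.08% each). The rise was that of COL6A3 (1.55-fold), which with an array left out was called in the fit without PBRM1 shRNA replicate 1 alone. The amino acid and unfolded protein response list held the fall of STC2 among 32. No gene was called among 23 SWI/SNF subunits, 20 ccRCC suppressors and chromatin genes, 30 sterol and fatty acid genes, 65 respiratory chain genes, 24 p53 targets or 7 metallothioneins. Of these, ACSS2 (0.42), NDUFA13 (-0.41) and PHLDA3 (-0.47) passed the adjusted p but not the fold threshold. The SWI/SNF subunits ranged from -0.34 for SMARCD1 to 0.26 for SMARCD2, with a median of -0.026.

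**Figure D4:**
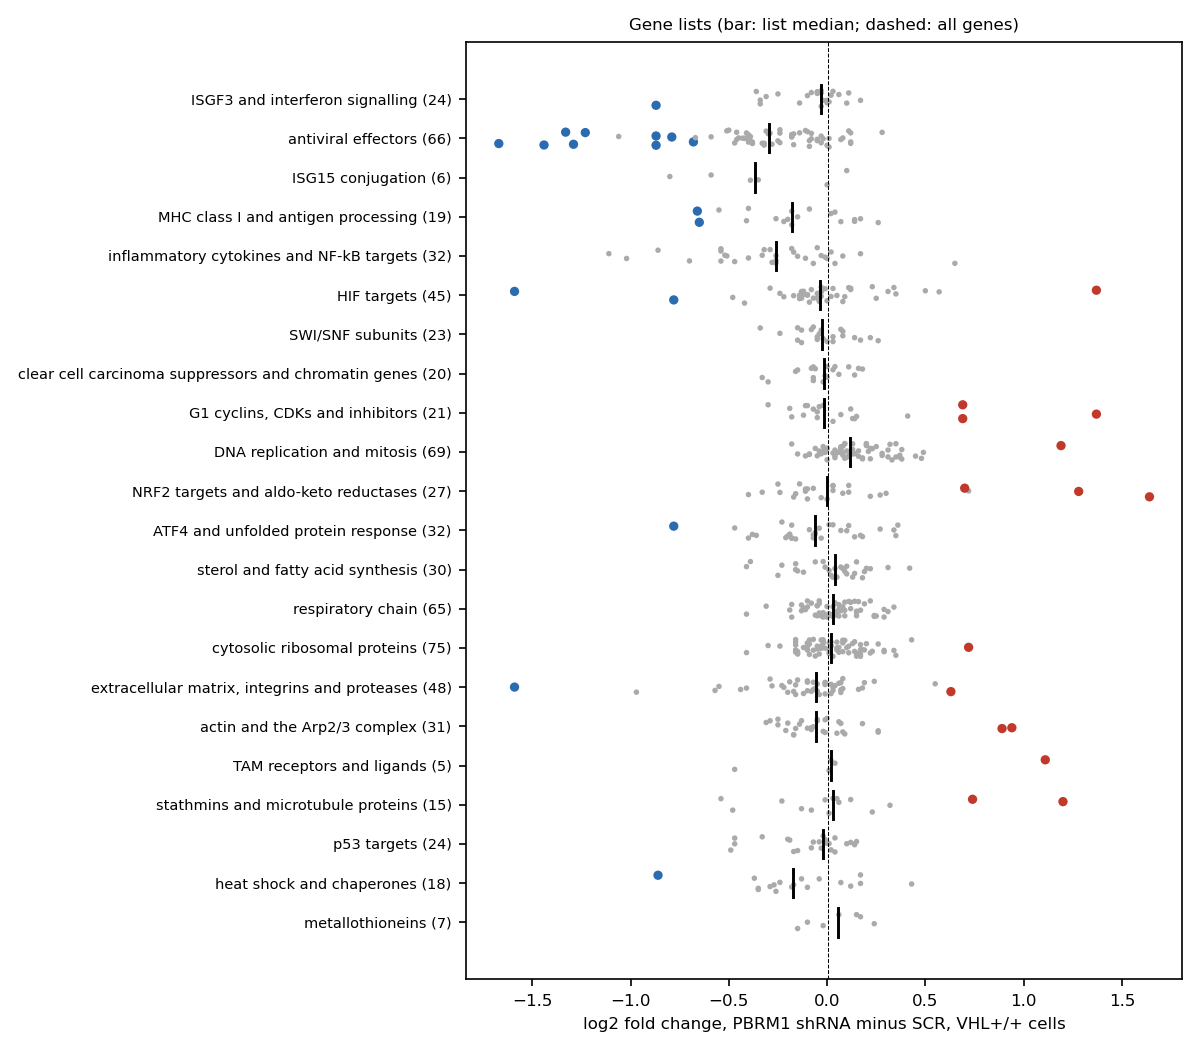
Log2 fold change (x axis) of each member of 22 gene lists, PBRM1 shRNA minus SCR in VHL+/+ cells, with the number of genes in the table in brackets, called falls in blue, called rises in red and black bars at the list medians. The antiviral effectors hold 9 of the falls, IRF9 of the signalling list included, and a median of -0.293. The inflammatory list has a median of -0.262 with 0 calls, and replication and mitosis has a median of 0.116.

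Does the PBRM1 shRNA act differently when VHL is absent? In VHL-/- cells, which share no array with this comparison, 238 genes (1.81%) were called. Of the 40 falls in VHL+/+ cells, 29 were also called lower in VHL-/- cells and 39 had the same sign. Of the 84 rises, 64 were also called higher and all 84 had the same sign. A test of the difference itself found 0 genes at an adjusted p under 0.05 by limma (smallest 0.903), with 553 genes (4.21%) at an unadjusted p under 0.05. Of the 124 called genes, 12 were at an unadjusted p under 0.05.

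The interferon falls had larger values in VHL-/- cells. Of the 11 in the interferon lists, 10 had a larger fall there, as did 11 of the 29 other falls. EPSTI1 was at -1.44 in VHL+/+ and -2.54 in VHL-/- cells, a difference of 1.10 (95% confidence interval 0.37 to 1.84). MX1 was at -1.33 and -2.53, a difference of 1.20 (0.36 to 2.03), and IFI44L at -1.23 and -2.38, a difference of 1.15 (0.37 to 1.92). The median of the 113 interferon genes was -0.185 in VHL+/+ and -0.474 in VHL-/- cells. These intervals are for single genes, and none of the differences passed adjustment over all genes. On chip 1 alone 10 genes passed it, all 10 in the interferon lists, among them MX1, EPSTI1, IFI44L, IFIT1 and ISG15. Without VHL-/- SCR replicate 3, a setting chosen after the data had been seen, 12 genes passed it, 11 of them in the lists. The mean SCR signals of EPSTI1, MX1 and IFI44L were also higher in VHL-/- cells. With PBRM1 shRNA, EPSTI1 went from 8.51 to 7.08 in VHL+/+ and from 9.61 to 7.07 in VHL-/- cells. MX1 went from 8.77 to 7.44 and from 10.24 to 7.71, and IFI44L from 8.66 to 7.43 and from 9.48 to 7.1. Whether the starting level bears on the size of the fall was not tested.

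The zinc finger protein ZNF394 was the only called fall of opposite sign, at 10.52, 10.37 and 9.97 with SCR and 9.74, 9.86 and 9.40 with PBRM1 shRNA in VHL+/+ cells (-0.62) and at 0.28 in VHL-/- cells. Its difference was -0.90 (-1.32 to -0.48). Its call in VHL+/+ cells was kept without SCR replicate 3 or PBRM1 shRNA replicate 2 and lost without any other array. Among the rises, IGSF3 (1.71 and 1.84), AKR7A2 (1.64 and 1.81), CCND1 (1.37 and 1.39) and GAS6 (1.11 and 1.28) had close values in both backgrounds. For CCND1 the difference was -0.02, with an interval of -0.37 to 0.33. STMN1 was at 0.74 and 1.06, a difference of -0.32 (-0.61 to -0.03), and the Y RNA RNY1 at 0.59 and 0.95, a difference of -0.35 (-0.57 to -0.13).

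**Figure D5:**
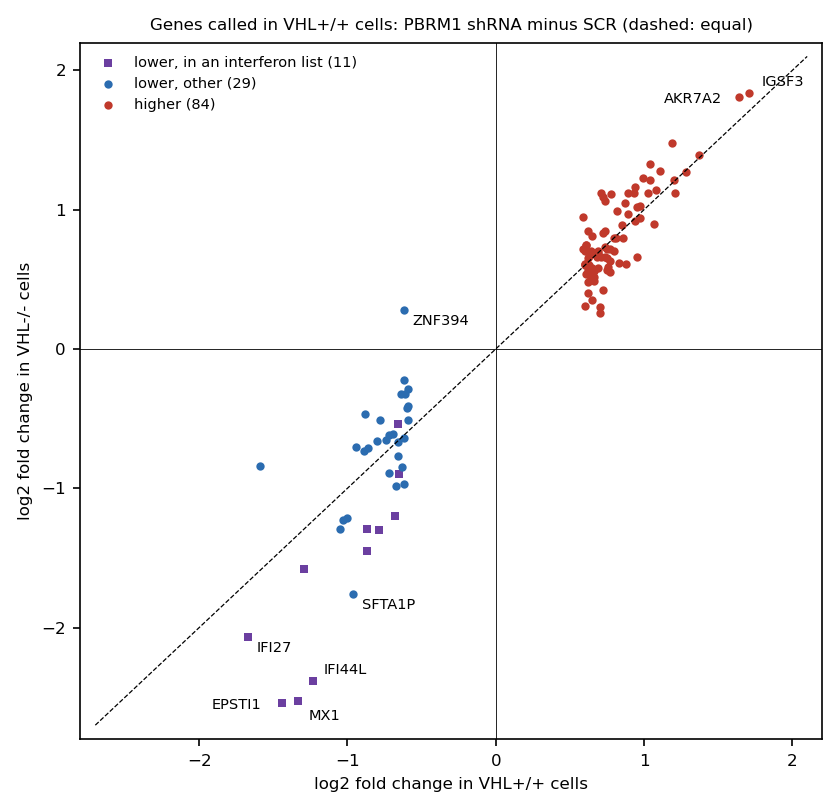
Log2 fold change, PBRM1 shRNA minus SCR, of the 124 genes called in VHL+/+ cells, in VHL+/+ cells (x axis) and in VHL-/- cells (y axis), with a dashed line where both are equal. Purple squares, the 11 falls in the interferon lists, lie below the line with 1 exception, ZNF394 has opposite signs, and the 84 rises are positive in both.

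Is the profile of the PBRM1 shRNA distinct from that of another shRNA in the same cells? The KDM5C shRNA, directed at a histone demethylase gene, was compared with the same SCR arrays, so a shift of those arrays enters both comparisons and their likeness is not evidence of a shared effect. The arrays of the 2 shRNAs were therefore set directly against each other. At an adjusted p under 0.05 by limma 0 genes differed (smallest 0.61), and 545 genes (4.15%) had an unadjusted p under 0.05. Over the 124 called genes the median absolute difference was 0.09, and the 95% confidence interval reached 0.26 to either side in the median gene, so that smaller differences could not be resolved. Side by side, IFI27 was at -1.67 with PBRM1 and -1.38 with KDM5C shRNA, IRF9 at -0.87 and -0.85, IGSF3 at 1.71 and 1.62, AKR7A2 at 1.64 and 1.71 and CCND1 at 1.37 and 1.30. The largest differences among the called genes were those of IFI6, at -1.29 and -0.91 (-0.37, interval -0.86 to 0.11), and MEX3C, at 0.68 and 0.31 (0.37, interval 0.05 to 0.69), and 7 of the 124 had an unadjusted p under 0.05.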

How the data were processed

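RNA of 6 arrays was compared within a fit of all 18. The authors deposited log2 signals of Illumina HumanHT-12 V4 arrays per gene. With GenomeStudio and limma they subtracted background under a rule that keeps values positive, quantile-normalized the log2 values, dropped probes undetected at 0.05 and took the mean over each gene's probes. Whether batch correction entered the values is not given in the sources used here. The number of arrays limits the precision.

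The model (limma 3.58.1, R 4.3.3) had terms for 6 groups and the chip (11 residual degrees of freedom), and p-values were adjusted by Benjamini-Hochberg within a contrast over 13141 genes. Calls needed an adjusted p under 0.05 and 1.5-fold or more (the study's methods used a fold above 2 for its gene selections, and counts at 2-fold are given beside). The fit was tested on simulated data. Of 13141 symbols, 10777 are current in RefSeq (GRCh38.p14), 1880 are synonyms of 1 gene and the rest matched several genes or none.

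The members and gene lists, written from general knowledge, were chosen with earlier results of these data known. Named were PBRM1, VHL, EPAS1, genes the study singles out, the 20 largest changes each way whose arrays did not overlap, called members of each list or up to 4 with the smallest p, and the 5 smallest interaction p-values each way among called genes. Some genes that this rule names are not reported here. As alternatives were tried no chip term, a replicate block, chip 1 alone, the arrays of the contrast alone, other fold thresholds, the 0.25 of genes with the lowest signal left out, median centring, cyclic loess, trend and robust moderation, and each array left out.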

Additional observations from a re-analysis of the deposited data

How the results depend on the processing

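The counts of called genes moved with the fold threshold, the chip term and the arrays used. Without the chip term 16 genes were lower and 68 higher, against 40 and 84 with it, and all of these 84 genes were among those called with it. At a fold of 2 the counts were 8 lower and 13 higher, and with no fold threshold 118 and 209. On chip 1 alone 36 were lower and 55 higher. With each of the 6 arrays left out in turn, 26 to 63 genes were lower and 69 to 106 higher, and 63 of the 124 genes (15 lower and 48 higher) were called in all 6 fits. When an arm was left with fewer arrays its spread was taken from the pooled fit. With the replicate block in place of the chip 40 were lower and 83 higher, and 122 of the 124 genes were kept. C15ORF48 and COL6A3 lost their calls there (adjusted p = 0.0587 and 0.056 by limma). Same-numbered arrays share a chip, and their deviations correlated at 0.395 to 0.722 as deposited and at 0.021 to 0.115 after the chip was removed, so that beyond the chip they were not treated as pairs. Median centring, cyclic loess, trend and robust moderation and leaving out the 0.25 of genes with the lowest signal gave 40 or 41 lower and 83 to 86 higher.

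For the difference between the VHL backgrounds, 0 genes passed the adjusted p in the fit reported, 10 on chip 1 alone, and 0 to 12 with 1 array left out, the 12 without VHL-/- SCR replicate 3. The comparison of the 2 shRNAs gave 0 genes under each alternative run. The log2 fold change of PBRM1 was -0.28 to -0.06 with 1 array left out. With those low genes left out the endothelial marker list had no members. No called value changed sign under any alternative. The cause of these shifts was not tested.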
